A study of Rattus norvegicus with 15 samples.

Results

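Long intergenic noncoding RNAs (lincRNAs) of rat liver were described in control rats, in rats with cirrhosis and in rats with cirrhosis that received eplerenone. The members were chosen by their raw counts: a row of the counts table belonged to the set when its biotype was lincRNA and it reached at least 10 counts in at least 4 of the 14 samples. Of 32623 rows in the table, 3090 carried the biotype lincRNA, 1127 of these had a count in any sample, and 262 met the rule. The counts that chose the members are given as a description, and the group labels were not used in the choice.

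A lincRNA is a transcript without a recognised protein coding frame that lies between protein coding genes. Many are spliced and polyadenylated like mRNAs and are expressed at lower levels and in fewer cell types. Some of those with a known role act in the nucleus on nearby genes, on chromatin or as scaffolds for RNA binding proteins. Most of the rat lincRNAs described here carry the name of the genomic clone they were annotated on, which does not show whether they have been studied. In cirrhosis, hepatocytes are lost and replaced, activated stellate cells deposit collagen and bile duct like cells multiply. Libraries were made from RNA enriched with oligo(dT), so that only transcripts with a poly(A) tail were captured.

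All animals were male, age-matched Wistar rats with an initial weight of 75 to 100 g. The control group received no treatment, the cirrhosis group inhaled carbon tetrachloride (CCl4), a hepatotoxin, for 12 weeks and drank phenobarbital (0.35 g/L), and the cirrhosis & eplerenone group received the same and, after 8 weeks, eplerenone (100 mg per kg body weight by mouth), an antagonist of the mineralocorticoid receptor. Livers were taken 7 to 10 days after the last CCl4, and the study chose the livers for sequencing by how well cirrhosis or treatment had succeeded. Counts were analysed for 4 control, 5 cirrhosis and 5 cirrhosis & eplerenone rats, each library labelled as its own replicate, and p-values measure the spread between these livers. The study had left out a control that differed from the others in a principal component analysis. The spread of the controls is thus that of the 4 analysed and may be smaller than with all controls. CCl4 and phenobarbital were always given together, and the sample labels carry a leading number, 13 or 16 in control rats and 15 or 20 in CCl4 treated rats, so that the effects of CCl4, of phenobarbital and of whatever this number stands for cannot be told apart.

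Total counts were between 16157491 and 21574767 per sample. The tissue carried the defining hepatocyte genes at high level, with a summed 127348.8 to 141866.8 FPM over 8 markers in control and 67808.4 to 131688.9 in cirrhosis, the highest of the cirrhosis group being replicate 5. Alb alone made up 82.7% to 93.3% of this sum, and the other 7 markers summed to 11309.1 to 13253.3 FPM in control and 7471 to 11704.9 in cirrhosis, with replicate 5 at 8848. FPM are counts per 1000000 of the library size, with the total of each library corrected by TMM. All 6 markers of bile duct cells were higher in cirrhosis (14.4 to 23.6 FPM summed in control, 46.4 to 142 in cirrhosis), as were 6 of 9 stellate cell markers, 3 of 8 lymphocyte markers, 3 of 3 neutrophil markers and 4 of 4 genes of dividing cells. Of the macrophage markers 1 of 6 was lower, of the endothelial markers 1 of 5 was higher and 1 lower, and of the hepatocyte markers 1 of 8 was lower. The part of these changes in the lincRNA values was not tested, and in whole liver RNA fewer cells of a type and less RNA per cell cannot be told apart.

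LincRNA rows took a small share of the counted reads. The share was 0.345%, 0.392%, 0.396% and 0.367% in the 4 control livers, 0.259%, 0.382%, 0.243%, 0.431% and 0.301% in the 5 cirrhosis livers and 0.355%, 0.315%, 0.416%, 0.305% and 0.320% in the 5 cirrhosis & eplerenone livers. The groups overlapped, and the cirrhosis group had both the lowest and the highest share. Members held 98.3% of the counts on lincRNA rows. A single lincRNA, AABR07004549.1, held 42.8% of the member counts, and the first 10 held 72.3%. The mean level of a member over all samples ran from 0.276 to 1461.0 FPM with a median of 1.65 FPM, beside 12.1 FPM for the median protein coding gene tested. FPM are not per length, so that they rank members by the reads they took, not by molecules.

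Of the 262 members, 213 were named by a clone, 46 by a LOC or RGD number and 3 by another symbol. They were spread over 21 chromosomes, with 40 on chromosome 1 and 6 on chromosome 18. Detection was not uniform, since 108 members reached 10 counts in all 14 samples, 30 reached it in CCl4 treated rats of both groups and in no control, and 1 only in controls. With 4 controls, a member could enter through controls alone only if all 4 reached 10 counts, while any 4 CCl4 treated rats were enough. The numbers 30 and 1 thus depend on the rule and the group sizes, and the same numbers over all genes are not given here. At the edge of the rule, 18 members reached 10 counts in exactly 4 samples (75 to 175 counts in all, median 98.5), and 23 lincRNA rows just outside reached it in exactly 3 (55 to 115 counts, median 90). RefSeq matched 14 members by symbol or gene ID and called 12 of these lncRNA. It lists Rfwd3 and LOC688442 as protein coding, so that the biotype of these rows differs between annotations. Of 80 symbols of well studied long noncoding RNAs looked up, 5 had a row in the table, and Tug1 was the only lincRNA member among them. The lookup was by symbol alone. A well studied RNA listed under a clone name or a LOC number would have been missed, so that its absence is not shown.

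The filter on low counts kept 14417 genes and 255 members. LOC100909609, AABR07013729.1, AABR07041724.2, AC094636.1, AABR07065780.1, AABR07014638.1 and LOC102549993 did not pass it and were not tested. In cirrhosis against control, 23 members were higher and 25 lower at a false discovery rate below 0.05 (edgeR quasi-likelihood test, Benjamini-Hochberg adjusted over all genes). These are 9.02% and 9.80% of the members tested, beside 13.4% of all genes tested that were higher and 6.71% that were lower. The share of members called in either direction was 18.8%, close to the 20.2% of all genes, and the median log2FC was -0.21 for the members and -0.01 for all genes. Without a scaling factor on the total counts, which moved the median of all genes to 0.28, 32 members were higher and 16 lower (12.5% and 6.27%), beside 21.2% and 2.54% of all genes, and the members' median was 0.08. For 52 members (20.4%) every cirrhosis liver lay on the same side of all controls, beside 20.2% of all genes whose groups do not overlap, and 36 of the 48 called members were among them. Of the members called higher, 11 had no control sample at 10 counts and had entered the set through CCl4 treated samples alone, and of those called lower, 7 had no cirrhosis sample at 10 counts. Such members entered the set through the groups in which they were high, so that their tests against the other group are a description.

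**Figure D1:**
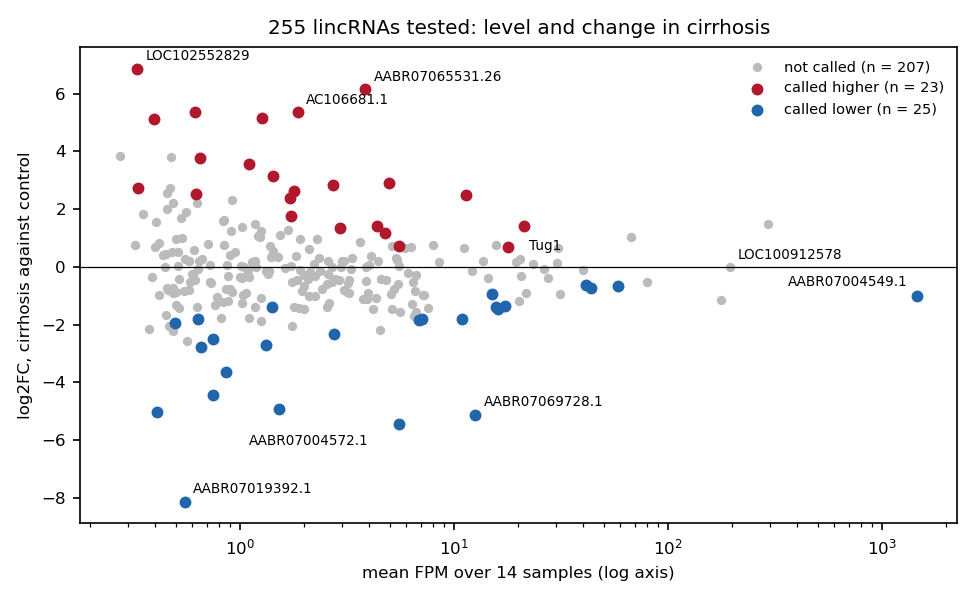
Each point is 1 of the 255 lincRNAs tested, with its mean FPM over 14 samples on a log x axis and its log2FC in cirrhosis against control on the y axis. The 23 called higher and 25 called lower lie on both sides of 0, and the fitted log2FC of LOC102552829 and AABR07019392.1 is no bound since 1 of their groups has no count.

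AABR07065531.26 had the smallest p of the members that rose. It lies on chromosome 6, with the Mir770 row directly beside it and Dlk1 as the nearest protein coding gene on the other side. Dlk1 is a transmembrane relative of the Notch ligands and a paternally expressed gene of an imprinted region, made in fetal liver and largely silent in the adult. AABR07065531.26 had 0.302, 0.116, 0 and 0 FPM in control, 10.5, 8.45, 6.58, 6.26 and 8.27 FPM in cirrhosis and 4.70, 0.814, 3.36, 1.64 and 3.01 FPM in cirrhosis & eplerenone. No control liver came near a cirrhosis liver, and the values of the cirrhosis & eplerenone group lay between the other groups without overlap. The log2FC against control was 6.16 ± 0.73 (SE, adjusted p = 0.000458) in cirrhosis and 4.60 ± 0.71 (adjusted p = 0.00374) in cirrhosis & eplerenone. Dlk1 had no count in any control and a mean of 1.74 FPM in cirrhosis (adjusted p = 0.00459) and 0.377 FPM in cirrhosis & eplerenone (adjusted p = 0.0558).

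LOC102552829 on chromosome 16, between Fgfr1, a fibroblast growth factor receptor, and Tacc1, was without a count in every control. Its counts were 24, 11, 22, 14 and 4 in cirrhosis and 2, 0, 15, 0 and 0 in cirrhosis & eplerenone. All cirrhosis livers had counts, and 3 of 5 livers with eplerenone had none. Cirrhosis was at least 4.31-fold higher than control, taking 3 counts per control library as the limit of detection (adjusted p = 0.0192). The flanking genes did not pass the test, with a log2FC of 0.52 for Fgfr1 and 0.30 for Tacc1.

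AABR07007717.3 (chromosome 2) had a single count in 1 of the controls and 15, 9, 36, 22 and 4 counts in cirrhosis. Its ratio of cirrhosis to control was 58.3 with an exact 95% counting interval of 10.2 to 2327.9. Under eplerenone its counts were 32, 16, 4, 7 and 16, within the range of the cirrhosis group. The groups of CCl4 treated rats overlapped each other and lay above every control (adjusted p = 0.0054 in cirrhosis and 0.015 in cirrhosis & eplerenone). Arhgef28, the next tested protein coding gene and a guanine nucleotide exchange factor for RhoA, was higher as well, from 0.208 to 1.59 FPM on average (log2FC 2.88 ± 0.79, adjusted p = 0.0215). The call of Arhgef28 was lost without control replicate 3, 4 or 5 (adjusted p up to 0.0592).

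AC106681.1 (chromosome 19) lies next to Kifc3, a kinesin motor of epithelial cells. It had 0, 0.289, 0.061 and 0 FPM in control and 4.60, 3.51, 8.20, 3.03 and 0.476 FPM in cirrhosis. Replicate 5 was the lowest cirrhosis liver and still above every control. In cirrhosis & eplerenone it had 1.23, 0.188, 1.25, 1.07 and 2.13 FPM, of which the second liver lay within the control range. The log2FC was 5.36 ± 0.99 in cirrhosis (adjusted p = 0.003) and 3.62 ± 0.98 in cirrhosis & eplerenone (adjusted p = 0.0436). Kifc3 itself rose from a mean of 10.4 FPM in control to 61.6 FPM in cirrhosis and 50.7 FPM in cirrhosis & eplerenone (log2FC 2.56 ± 0.29, adjusted p = 0.000458, and 2.28, adjusted p = 0.00127).

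LOC102549948 on chromosome 9 is next to Tram2, which takes part in collagen synthesis at the endoplasmic reticulum. The FPM were 0, 0.0578, 0 and 0.191 in control, 4.38, 0.775, 3.88, 2.00 and 1.01 in cirrhosis and 1.33, 0.125, 1.34, 1.24 and 1.42 in cirrhosis & eplerenone. Cirrhosis was above all controls, and replicate 2 of the eplerenone group lay within the controls while the other 4 livers lay close together. The log2FC was 5.15 ± 0.95 (adjusted p = 0.00294) in cirrhosis and 4.03 ± 0.95 (adjusted p = 0.0232) in cirrhosis & eplerenone. Tram2 did not pass the test (log2FC -0.63 ± 0.83, adjusted p = 0.592).

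Sequence upstream of the start was at hand for few members. The promoters of LOC102549948 and of LOC102549869, both higher in cirrhosis, are shown with that of Tug1, which was not called, so that 2 members that rose can be read beside it. They were taken from RefSeq (build GRCr8, 250 bases before to 50 after the start, 5′ to 3′ on the strand of the gene). Capitals mark CCAAT on either strand.
LOC102549948 (chr9:31019515-31019814, minus strand): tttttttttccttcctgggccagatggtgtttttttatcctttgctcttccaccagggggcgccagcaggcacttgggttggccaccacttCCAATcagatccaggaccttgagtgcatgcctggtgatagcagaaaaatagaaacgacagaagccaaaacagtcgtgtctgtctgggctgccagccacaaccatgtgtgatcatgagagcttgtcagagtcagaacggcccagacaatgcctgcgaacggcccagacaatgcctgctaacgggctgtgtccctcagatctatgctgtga
LOC102549869 (chrX:30873680-30873979, minus strand, the outermost of 3 listed starts): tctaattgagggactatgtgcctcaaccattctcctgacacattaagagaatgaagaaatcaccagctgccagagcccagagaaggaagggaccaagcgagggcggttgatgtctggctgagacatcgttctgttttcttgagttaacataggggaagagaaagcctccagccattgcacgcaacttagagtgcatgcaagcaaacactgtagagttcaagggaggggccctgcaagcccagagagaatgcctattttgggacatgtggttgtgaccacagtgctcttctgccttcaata
Tug1 (chr14:82750485-82750784, minus strand): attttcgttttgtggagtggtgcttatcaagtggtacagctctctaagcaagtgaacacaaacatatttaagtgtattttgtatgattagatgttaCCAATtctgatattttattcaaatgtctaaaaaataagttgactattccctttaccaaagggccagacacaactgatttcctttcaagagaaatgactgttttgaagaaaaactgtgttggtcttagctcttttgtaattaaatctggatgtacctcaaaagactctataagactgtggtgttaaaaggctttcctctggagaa
The GC content was 52.3%, 49.3% and 34% in this order. TGTTCT, a hexamer bound by steroid receptors that include the mineralocorticoid receptor, was searched on both strands together with TGANTCA (AP-1), TATAAA and CCAAT. In the 3 sequences shown only CCAAT was found, at 1 place each in LOC102549948 and Tug1, and the window of the innermost start of LOC102549869, which is not shown, held 1 CCAAT as well. Over all 33469 promoters of the same length, 20.7% held TGTTCT, 7.33% TGANTCA, 14.2% TATAAA and 37.5% CCAAT.

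The other members among the 10 largest rises were AABR07058501.1, LOC100912611, AABR07060519.1, AABR07058158.1 and AABR07030086.1. AABR07058501.1 (chromosome 7, between C1qtnf6 and the somatostatin receptor gene Sstr3) had 1 count in all controls together and 2, 8, 15, 18 and 28 counts in cirrhosis, a ratio of 48.1 with a counting interval of 8.36 to 1926.5. LOC100912611 (chromosome 5) had 0.121, 0.0578, 0.183 and 0 FPM in control and 1.16, 0.653, 2.10, 2.56 and 0.119 FPM in cirrhosis, where replicate 5 fell within the controls (log2FC 3.77 ± 1.21, adjusted p = 0.0408). AABR07060519.1 (chromosome 4, between the histone methyltransferase gene Ezh2 and Pdia4) rose from a mean FPM of 0.134 ± 0.199 (SD) over the 4 controls to 1.69 ± 0.664 over the 5 cirrhosis livers and 1.28 ± 0.673 over the 5 livers with eplerenone (adjusted p = 0.00921 and 0.0361). Ezh2 and Pdia4 did not pass the test.

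AABR07058158.1 on chromosome 7 is separated by 1 row from Myc, the transcription factor of growth and proliferation. It was even among controls, at 0.241, 0.173, 0.244 and 0.191 FPM. In cirrhosis it had 1.11, 1.84, 1.40, 3.69 and 1.67 FPM and in cirrhosis & eplerenone 1.18, 0.438, 4.94, 1.30 and 1.42 FPM, all above the controls. The log2FC was 3.15 ± 0.67 (adjusted p = 0.00635) in cirrhosis and 3.10 ± 0.67 (adjusted p = 0.0157) in cirrhosis & eplerenone. Myc had a mean of 28.4, 34.9 and 28.9 FPM in control, cirrhosis and cirrhosis & eplerenone and did not pass the test (log2FC 0.29 ± 0.58, adjusted p = 0.727).

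Among the members that fell, AABR07019392.1 had no count in any cirrhosis liver. It lies on chromosome 15 directly before Abcc4, an efflux pump that exports bile acids and nucleotides. Its counts were 21, 23, 29 and 51 in control, 0 in all 5 cirrhosis livers and 0, 0, 0, 2 and 0 in cirrhosis & eplerenone. CCl4 treated livers were almost devoid of it, with or without eplerenone. Control was at least 12.1-fold higher than cirrhosis (3 counts per library as the limit), and the ratio of control to cirrhosis & eplerenone was 90.5 with an exact counting interval of 24.5 to 755. It was the 1 member that met the count rule through the 4 controls alone and so had to differ, and its calls, in this and in the later counts, are a description. Abcc4 did not pass the test (log2FC -0.40 ± 0.65, adjusted p = 0.667), nor did Gpr180 on the other side.

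A group of 3 members lay within a few rows of each other on chromosome 1 before Cyp2c6v1, a cytochrome P450 gene of hepatocytes, with AABR07004572.1 in the row next to it. AABR07004549.1, the most abundant lincRNA, had 1387, 2678, 2573 and 2412 FPM in control, 1120.1, 1721, 1057, 1179.7 and 528 FPM in cirrhosis and 974, 1569, 1147, 872 and 1238 FPM in cirrhosis & eplerenone. Control replicate 2 was the lowest control and lay within the range of the CCl4 treated livers. The log2FC was -1.01 ± 0.30 (adjusted p = 0.0308) in cirrhosis, and -0.96 ± 0.30 (adjusted p = 0.0792) in cirrhosis & eplerenone, where it was not called. Without a scaling factor on total counts it was not called in cirrhosis either (-0.69, adjusted p = 0.119). AABR07004572.1 fell from 30.7, 11.4, 11.3 and 12.5 FPM in control to 0, 0, 0, 0.615 and 1.31 FPM in cirrhosis (log2FC -5.45 ± 1.12, adjusted p = 0.00529), with 0.767, 2.63, 0.121, 5.59 and 0.492 FPM in cirrhosis & eplerenone. AABR07004530.1 fell from a mean FPM of 2.27 ± 0.961 (SD) over 4 controls to 0.189 ± 0.394 over 5 cirrhosis livers (adjusted p = 0.0336), and 3 of 5 cirrhosis livers had no count of it. Cyp2c6v1 had a mean of 2823.0, 2985.6 and 2939.2 FPM in control, cirrhosis and cirrhosis & eplerenone and was not called (log2FC 0.08 ± 0.24, adjusted p = 0.819). The authors counted a read with more than 1 place in the genome at every such place, and how many reads on these rows are shared with a Cyp2c gene was not tested.

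Another group of 3 lay before Mreg on chromosome 9, the gene of melanoregulin, which takes part in the movement and breakdown of vesicles. AABR07068043.1 had 1.15, 4.16, 7.75 and 4.71 FPM in control, 0, 0.245, 0.0539, 0.103 and 0.298 FPM in cirrhosis and 0.102, 0.939, 0.769, 1.02 and 0.164 FPM in cirrhosis & eplerenone. Both groups of CCl4 treated rats were below every control, with a log2FC of -4.91 ± 0.81 (adjusted p = 0.00167) and -2.88 ± 0.71 (adjusted p = 0.0285). AABR07068044.2 had 0.603, 0.694, 4.64 and 2.16 FPM in control and 0.111, 0, 0, 0 and 0.357 FPM in cirrhosis (log2FC -4.44 ± 1.02, adjusted p = 0.00913). The third, AABR07068046.1, passed the test only under eplerenone, with a mean FPM of 1.65 ± 0.525 (SD) over 4 controls, 0.71 ± 0.280 over 5 cirrhosis livers and 0.313 ± 0.171 over 5 livers with eplerenone (log2FC -1.21, adjusted p = 0.0726, and -2.39, adjusted p = 0.0129). Mreg had a mean of 315, 115 and 123 FPM (log2FC -1.45 ± 0.43, adjusted p = 0.0289 in cirrhosis, and -1.35, adjusted p = 0.0811 under eplerenone). Its call in cirrhosis was lost without any 1 of the controls or cirrhosis replicate 1, 3 or 4 (adjusted p up to 0.0699).

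AABR07069728.1 (chromosome 8) varied widely even among controls, at 91.5, 17.3, 13.9 and 42.5 FPM. In cirrhosis it had 0.166, 0.122, 0.378, 0 and 5.48 FPM and in cirrhosis & eplerenone 0.767, 2.57, 0.121, 0.564 and 1.15 FPM. All CCl4 treated livers were below all controls, replicate 5 of cirrhosis being the nearest (log2FC -5.12 ± 1.09, adjusted p = 0.00635, and -5.36 ± 1.10, adjusted p = 0.0135). Its neighbours LOC680406 and LOC100360095, the latter listed by RefSeq as Rup-4, did not pass the test, with a log2FC of -1.42 ± 0.62 and -2.92 ± 2.11.

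AABR07026037.1 (chromosome 16) lies between Eri1 and Ppp1r3b, the latter a glycogen targeting subunit of protein phosphatase 1 in liver. It was even in control, at 12, 15, 17 and 14 counts, and had 0, 1, 1, 0 and 0 counts in cirrhosis, a ratio of control to cirrhosis of 42.8 with an exact counting interval of 11.3 to 362 (adjusted p = 0.00322). Under eplerenone the counts were 0, 15, 9, 7 and 8. Replicate 1 of the eplerenone group was as low as cirrhosis, while the other 4 rats lay above all cirrhosis livers. Ppp1r3b did not pass the test (log2FC -0.68 ± 0.47, adjusted p = 0.304).

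AABR07059004.1 (chromosome 4), with Shh as its nearest protein coding gene on one side, had 1.15, 0.520, 1.22 and 1.40 FPM in control, 0, 0.286, 0.162, 0.103 and 0.179 FPM in cirrhosis and 0.767, 1.00, 0.729, 1.30 and 0.437 FPM in cirrhosis & eplerenone. The cirrhosis group lay below both other groups, which overlapped each other (log2FC -2.79 ± 0.61, adjusted p = 0.00737 in cirrhosis, and -0.34 ± 0.55, adjusted p = 0.801 under eplerenone, both against control). Shh itself had 1 count in all 14 livers together. AABR07045400.1 (chromosome 20, 1 row before Foxo3) fell from a mean FPM of 2.9 ± 0.952 (SD) over 4 controls to 0.440 ± 0.261 over 5 cirrhosis livers (adjusted p = 0.0126). LOC103692869 (chromosome 7) fell from a mean FPM of 1.70 ± 0.832 (SD) to 0.299 ± 0.193 over the same livers (log2FC -2.49, adjusted p = 0.0197), and its neighbour Slc16a7, the monocarboxylate transporter MCT2, fell from 26.6 to 13.1 FPM on average (log2FC -1.02 ± 0.27, adjusted p = 0.0175, 0.0539 without control replicate 2 and 0.072 without a scaling factor).

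**Figure D2:**
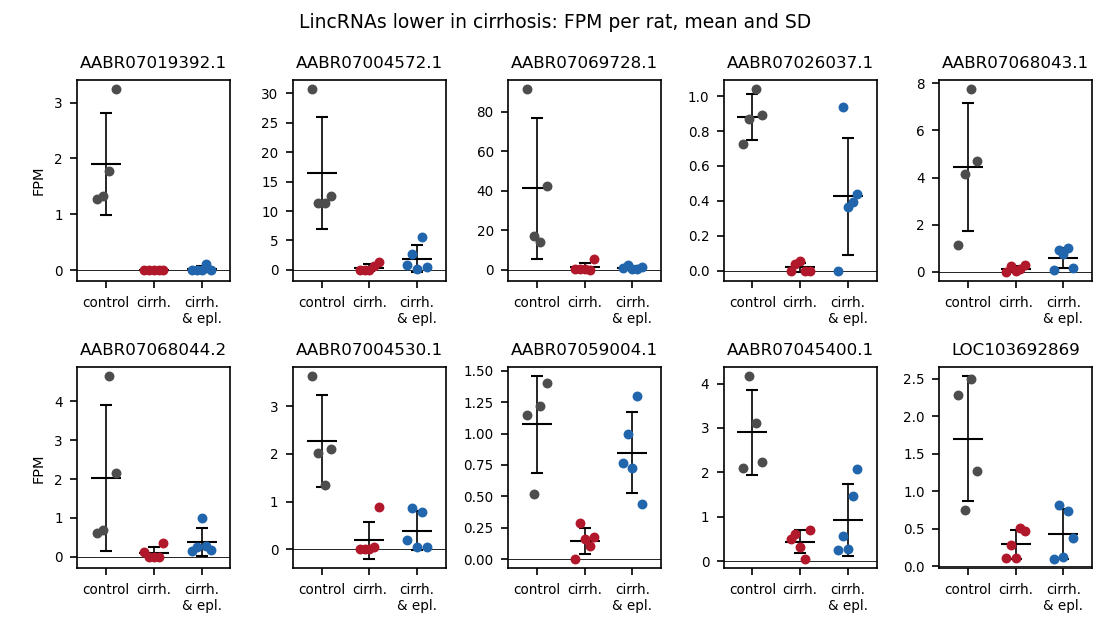
FPM of the 10 lincRNAs with the largest fall in cirrhosis, 1 point per rat, with group means and SD as bars on a linear y axis for each panel. AABR07019392.1 is at 0 in all 5 cirrhosis livers, and for AABR07059004.1 the cirrhosis & eplerenone livers overlap the controls.

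The weight of single libraries differed between these members. When each of the 14 samples was left out in turn, AABR07065531.26, AABR07007717.3, AC106681.1, LOC102549948, AABR07060519.1 and AABR07058158.1 were called higher and AABR07019392.1, AABR07004572.1, AABR07069728.1, AABR07026037.1, AABR07068043.1, AABR07059004.1 and AABR07045400.1 called lower in cirrhosis in all 14 fits. LOC102552829 and AABR07068044.2 were called in each fit that tested them, 10 and 13, and failed the filter on low counts in the others (without cirrhosis replicate 1, 3 or 4 or cirrhosis & eplerenone replicate 3, and without cirrhosis & eplerenone replicate 3). All of the members so far that rose had no control sample at 10 counts and entered the set through CCl4 treated samples alone. The same holds for AABR07058501.1 and LOC100912611. Of those that fell, AABR07019392.1, AABR07026037.1, AABR07068043.1, AABR07059004.1 and AABR07068044.2 had no cirrhosis sample at 10 counts. For these members the calls are a description in every fit. AABR07058501.1 was not called without any 1 of the controls or without cirrhosis replicate 4 (adjusted p up to 0.0824), and LOC100912611 not without any 1 of the controls or cirrhosis replicate 1, 3 or 4 (up to 0.108). AABR07030086.1 was not called without control replicate 3, 4 or 5 or cirrhosis replicate 3 (up to 0.0752), LOC103692869 not without control replicate 2 or 4 (up to 0.0583), AABR07004530.1 not without any 1 of the controls or cirrhosis replicate 1, 2, 3 or 4 (up to 0.0773), and AABR07004549.1 not without control replicate 3, 4 or 5 or cirrhosis replicate 1, 3 or 4 (up to 0.0814). Leaving out cirrhosis replicate 5 moved AABR07004530.1 to -6.89 and AABR07069728.1 to -7.93 on the log2 scale. Over the 48 called members, cirrhosis replicate 5 was the cirrhosis liver nearest to control for 14 of the 23 that rose and 13 of the 25 that fell. The same count over all called genes is not given here, so that it cannot be read as particular to lincRNAs. Without this liver 34 members were called higher and 44 lower (13.5% and 17.5% of 252), beside 18% and 14.1% of all genes in the same fit, where calls rose as well.

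Among the 10 lincRNAs with the most reads, LOC103689920, AABR07033564.2 and AABR07051507.1 were also lower in cirrhosis by a modest amount. LOC103689920 (chromosome 10) had 64.8, 71.9, 89.5 and 66.1 FPM in control and 38.8, 51.5, 38.0, 45.9 and 58.9 FPM in cirrhosis (log2FC -0.65 ± 0.20, adjusted p = 0.0332). AABR07033564.2 (chromosome 11, in the stretch from Bach1 to Grik1) went from a mean of 56.6 ± 7.24 FPM (SD) over 4 controls to 34.4 ± 7.38 over 5 cirrhosis livers (adjusted p = 0.0332), and AABR07051507.1 (chromosome 3, next to Cntrl) from 55.6 ± 8.15 to 36.3 ± 9.37 FPM (adjusted p = 0.0452). Their groups did not overlap, but all 3 calls were lost without a scaling factor on total counts (adjusted p = 0.235, 0.213 and 0.155), and without single libraries: control replicate 3, 4 or 5 or cirrhosis replicate 1, 3 or 4 for LOC103689920 (up to 0.0994), control replicate 2, 3 or 4 or the same cirrhosis replicates for AABR07033564.2 (up to 0.0829), and any 1 of the controls, of cirrhosis 1 to 4 or of cirrhosis & eplerenone 1, 4 and 5 for AABR07051507.1 (up to 0.118). The others were not called. LOC100912578 (chromosome 3, between olfactory receptor genes without counts) had 218, 182, 201 and 192 FPM in control, 200, 200, 197, 164 and 216 FPM in cirrhosis and 190, 184, 204, 180 and 183 FPM in cirrhosis & eplerenone (log2FC -0.02 ± 0.14, adjusted p = 0.93, and 0.26 without a scaling factor). AABR07072236.1 next to Mir568 and Zbtb20 (log2FC -0.10, adjusted p = 0.752), AABR07024870.1 (-1.16, adjusted p = 0.0705) and AABR07044414.1 (1.02, adjusted p = 0.0729) were not called in edgeR, while DESeq2 called the last 2 (adjusted p = 0.0346 and 0.0317).

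Tug1, a long noncoding RNA known from retina development and from binding to chromatin repressor complexes, was the one member from the list of well studied symbols. It had 18.4, 17.6, 18.9 and 15 FPM in control, 14.8, 21.8, 21.9, 21.3 and 27.2 FPM in cirrhosis and 22.2, 20.8, 23.0, 20.9 and 21.7 FPM in cirrhosis & eplerenone. Control and cirrhosis overlapped, and the cirrhosis & eplerenone livers lay in a narrow band above the controls. The log2FC was 0.29 ± 0.16 (adjusted p = 0.199) and 0.31 ± 0.16 (adjusted p = 0.294), neither past the threshold. Its neighbours Smtn and Morc2 were not called either.

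A further group of 3 members in neighbouring rows of chromosome 1 contained the lincRNA AC134224.3, whose values were widely spread within each group. AC134224.3 had 401, 38.5, 21.7 and 24.2 FPM in control, 10.3, 21.9, 10.2, 958 and 686 FPM in cirrhosis and 532, 20.6, 308, 574 and 519 FPM in cirrhosis & eplerenone. High and low livers occurred in all groups, and most high ones shared the leading number of their label: the control with 13 was high and the 3 with 16 were low, the 5 CCl4 treated rats with 20 were high, and of the 5 with 15, 4 were low and 1, cirrhosis & eplerenone replicate 1, was high. Its log2FC of 1.47 ± 1.33 in cirrhosis was not called (adjusted p = 0.427). Among CCl4 treated rats, with the label number as a term beside treatment, 20 was higher than 15 by a log2FC of 3.30 ± 1.20 (adjusted p = 0.696), and none of 205 members passed the adjusted threshold for that term, beside 11 of 13795 genes. What the label number stands for is not given in the sources used here.

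The rows next to it had a smaller range. AC134224.1 had 129, 104, 65.8 and 67.1 FPM in control, 34.3, 71.8, 31.4, 82.0 and 96.1 FPM in cirrhosis and 117, 63.3, 97.4, 94.7 and 63.3 FPM in cirrhosis & eplerenone (log2FC -0.53 ± 0.33, adjusted p = 0.248). AC134224.2, named after its values were seen, fell from a mean of 20.3 FPM to 10.6 FPM in cirrhosis (log2FC -0.94 ± 0.23, adjusted p = 0.0121), while Frmd8 rose from 6.32 to 14.5 FPM (log2FC 1.20 ± 0.25, adjusted p = 0.00578).

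**Figure D3:**
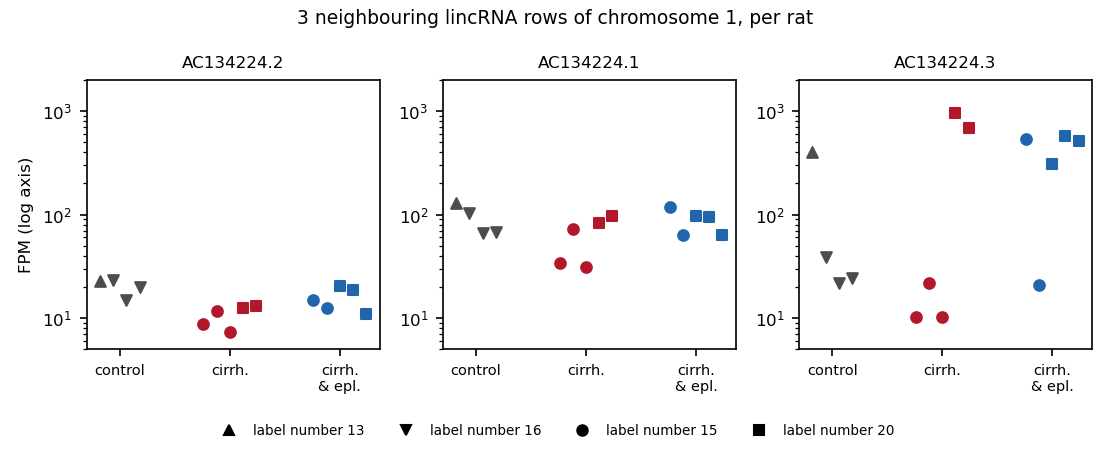
FPM of 3 neighbouring lincRNAs on a log y axis, 1 point per rat, coloured by group and shaped by the leading number of the sample label. AC134224.3 runs from 10.2 to 958 FPM and is at 308 FPM or more in all rats with 20, in the control with 13 and in 1 rat with 15, while AC134224.1 and AC134224.2 have a smaller range.

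To place the members in the genome, the nearest protein coding rows on either side were taken as neighbours, since the table is in chromosomal order. Of consecutive protein coding rows matched to RefSeq, 94.3% were in the same order in GRCr8, and all 12 matched lncRNA members shared a neighbour there. The 23 members that rose in cirrhosis had 32 neighbours tested, of which 9 were higher (28.1%) and 0 lower. The 25 that fell had 33, of which 2 were higher (6.06%) and 5 lower (15.2%), and the 207 members not called had 273, of which 26 were higher (9.52%) and 27 lower (9.89%). Among all protein coding genes 13.9% were higher and 6.76% lower. These counts are a description without a test, and distances and strands were not used here.

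All members beside a neighbour that moved the same way can be named. Of those that rose, AABR07065531.26, AABR07007717.3, AC106681.1 and AABR07058501.1 were given above, the last beside C1qtnf6 (log2FC 1.93 ± 0.54, adjusted p = 0.0237, and up to 0.0718 without control replicate 2, 3 or 5 or cirrhosis replicate 3). The others were chosen after their values were seen. LOC102549869 on chromosome X rose with Tmsb4x, the gene of the actin binding peptide thymosin beta-4: the lincRNA had 1, 7, 5 and 0 counts in control, 36, 17, 26, 23 and 8 in cirrhosis and 10, 5, 8, 4 and 16 in cirrhosis & eplerenone (log2FC 2.52 ± 0.75, adjusted p = 0.0301), and Tmsb4x went from 404 to 1141.0 FPM on average (log2FC 1.5 ± 0.37, adjusted p = 0.014). AA926063 rose (log2FC 1.41 ± 0.44, adjusted p = 0.0371) near Kifc1, a kinesin of the mitotic spindle (2.97 ± 0.81, adjusted p = 0.0212). Kifc1 is its neighbour by the order of the table, while RefSeq lists Daxx and Smim40 beside AA926063. AABR07021996.1 rose (1.19 ± 0.37, adjusted p = 0.0356) near the homeobox gene Hlx (1.49 ± 0.36, adjusted p = 0.012). AABR07070131.1 and Ttc12 (2.72 and 2.06) and the row named Rfwd3 and Glg1 (0.73 and 0.50) rose as well. Like the members given above, LOC102549869 and AABR07070131.1 had no control sample at 10 counts. They entered the set through CCl4 treated samples alone, so that their calls are a description. Without single libraries, the adjusted p passed 0.05 in 6 of 14 fits for LOC102549869 (cirrhosis replicates 1, 3 and 4 and control replicates 2, 4 and 5, up to 0.0768), 6 for AA926063 (cirrhosis 3 and 4 and each control, up to 0.111), 7 for AABR07021996.1 (cirrhosis 1, 3 and 4 and each control, up to 0.11), 10 for AABR07070131.1 (cirrhosis 1 to 4, cirrhosis & eplerenone 2, 4 and 5 and control 2, 3 and 5, up to 0.125) and 6 for Rfwd3 (cirrhosis 1 and 4 and each control, up to 0.0856). It did so for Tmsb4x without control replicate 5 (0.0539), for Kifc1 without control 3 or 5 (up to 0.0691), for Ttc12 without cirrhosis 4 or control 3 or 5 (up to 0.0689) and for Glg1 without cirrhosis 1, 3 or 4 or control 2, 4 or 5 (up to 0.0995), and in no fit for Hlx.

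Of the members that fell, LOC103692869, AABR07068043.1 and AABR07068044.2 were given above. AABR07054126.1 fell from a mean of 12.4 to 3.50 FPM (log2FC -1.82 ± 0.55, adjusted p = 0.0326) next to Foxa2, a transcription factor of hepatocytes and bile duct cells, which fell from 47.9 to 19 FPM (-1.33 ± 0.39, adjusted p = 0.0298). AC125248.1 fell from 29.4 to 11.4 FPM (-1.37 ± 0.40, adjusted p = 0.0277) next to Cd14, the coreceptor for lipopolysaccharide, which fell from 76.3 to 31.8 FPM (-1.26 ± 0.40, adjusted p = 0.038). LOC103690060 fell (-1.39 ± 0.44, adjusted p = 0.0389) near Plpp3, a lipid phosphate phosphatase (-1.28 ± 0.31, adjusted p = 0.0128). The opposite direction was found for AC134224.2 with Frmd8 and for AABR07026984.1 (-1.79 ± 0.57, adjusted p = 0.0387) with Lect2, a secreted hepatocyte protein (0.95 ± 0.27, adjusted p = 0.0233). Like AABR07068043.1 and AABR07068044.2, AABR07026984.1 had no cirrhosis sample at 10 counts, so that its call is a description. Without single libraries the calls of AABR07054126.1 and Foxa2 were lost for the same 5 libraries (cirrhosis 1, 3 and 4 and control 2 and 5, adjusted p up to 0.123 and 0.11), and those of AC125248.1 for cirrhosis 1 and 4 and control 2 (up to 0.143), of Cd14 for cirrhosis 1 to 4 and each control (up to 0.0831), of LOC103690060 for cirrhosis 1, 3 and 4 and control 3 to 5 (up to 0.118), of AABR07026984.1 for cirrhosis 1 to 4 and control 2, 3 and 5 (up to 0.124) and of Lect2 for cirrhosis 3 and control 3 to 5 (up to 0.0718). AC134224.2, Frmd8 and Plpp3 were called in all 14 fits. Without a scaling factor on total counts the calls of AC134224.2 (adjusted p = 0.126), Foxa2 (0.0635), Cd14 (0.0529), LOC103690060 (0.106) and AABR07026984.1 (0.0607) were lost. No strand setting is stated for the counting, so that reads of a lincRNA and of a transcript that overlaps it on the other strand cannot be told apart.

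**Figure D4:**
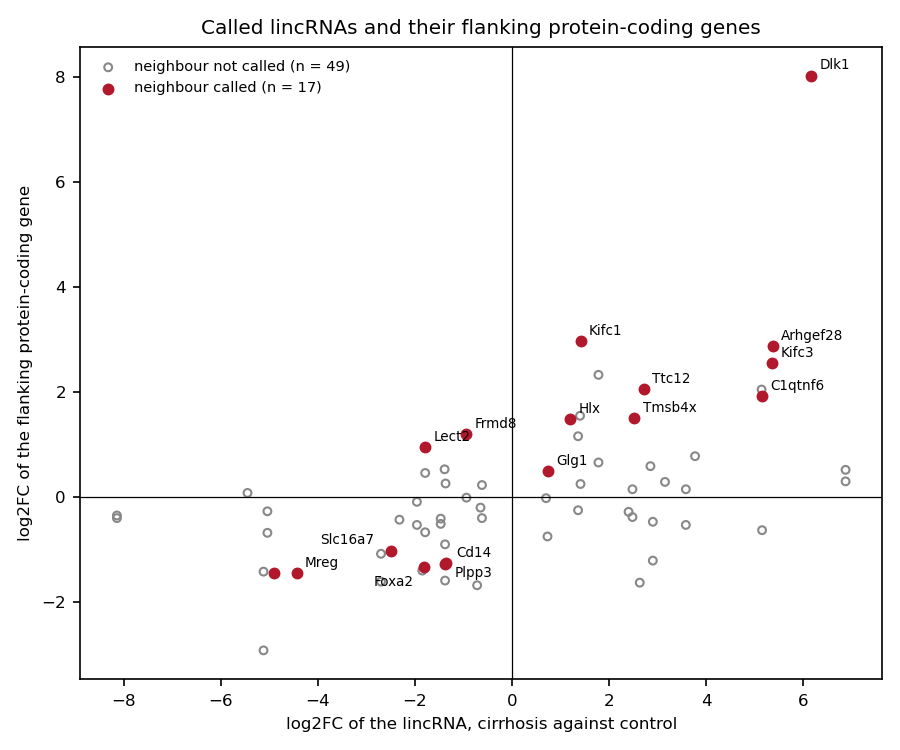
Each point pairs a lincRNA called in cirrhosis (x axis, log2FC against control) with a tested flanking protein coding gene (y axis, log2FC of that gene). Of 66 pairs, 17 have a called neighbour (filled), the fitted log2FC of Dlk1 is no bound since no control has a count of it, and Frmd8 and Lect2 are the called neighbours in the quadrant of opposite direction.

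In cirrhosis & eplerenone against control, 7 members were higher and 5 lower (2.75% and 1.96% of 255), beside 4.33% of all genes that were higher and 0.895% that were lower. Those higher were AABR07065531.26, AABR07007717.3, AC106681.1, LOC102549948, AABR07060519.1, AABR07058158.1 and AABR07038983.1, and those lower AABR07019392.1, AABR07069728.1, AABR07068043.1, AABR07068046.1 and AABR07013746.1. All of those higher except AABR07038983.1 had no control sample at 10 counts and entered the set through CCl4 treated samples alone. Their calls against control, and the share of members called higher, are therefore a description. AABR07038983.1, named after its values were seen, lies on chromosome X next to the row of Mir223, a microRNA of myeloid cells. It had 10, 4, 9 and 4 counts in control, 25, 66, 55, 84 and 25 in cirrhosis and 19, 18, 121, 20 and 44 in cirrhosis & eplerenone, all CCl4 treated livers lying above all controls (log2FC 2.63 ± 0.60, adjusted p = 0.00834, and 2.35, adjusted p = 0.0316). The neutrophil markers had a sum of 0.572 to 1.45 FPM in control, 1.92 to 19.5 FPM in cirrhosis and 1.81 to 25.2 FPM in cirrhosis & eplerenone, and their part in this rise was not tested. AABR07013746.1 had 6.45, 9.37, 14.3 and 11 FPM in control, 4.49, 8.32, 4.58, 4.82 and 6.67 FPM in cirrhosis and 4.04, 5.38, 5.87, 4.46 and 2.73 FPM in cirrhosis & eplerenone. It fell below all controls under eplerenone (log2FC -1.19 ± 0.29, adjusted p = 0.0263) and overlapped them in cirrhosis (-0.83 ± 0.29, adjusted p = 0.0522). Without a scaling factor it was not called under eplerenone either (-0.85, adjusted p = 0.122).

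Most of these calls were lost when a single rat was left out, and the share lost over all called genes is not given here. With each sample left out in turn, AABR07065531.26, AABR07019392.1, AABR07069728.1 and AABR07068046.1 were called in all 14 fits. AC106681.1 lost its call without control replicate 2, 4 or 5, cirrhosis 1, 2 or 4 or cirrhosis & eplerenone 1, 3, 4 or 5 (adjusted p up to 0.132). AABR07060519.1 and AABR07068043.1 lost it without control replicate 3, 4 or 5 or cirrhosis & eplerenone 1, 3 or 5 (up to 0.108 and 0.102). AABR07038983.1 lost it without any 1 of the controls or cirrhosis & eplerenone 3 or 5 (up to 0.111), AABR07013746.1 without control 3, 4 or 5 or cirrhosis & eplerenone 1 or 5 (up to 0.0985), LOC102549948 without control 2, 3 or 4 or cirrhosis & eplerenone 3 (up to 0.0747), and AABR07058158.1 and AABR07007717.3 without control 3 or 5 (up to 0.0614 and 0.0599).

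Cirrhosis & eplerenone was then compared directly with cirrhosis. None of the 255 members passed the adjusted threshold in edgeR, beside 0.0139% of all genes, and 34 members (13.3%) had an unadjusted p below 0.05, beside 14.4% of all genes. DESeq2 called 5 members (1.96%), beside 0.513% of all genes. With 4 samples per group, leaving out cirrhosis replicate 5 and cirrhosis & eplerenone replicate 3, edgeR called 18 of 237 members (7.59%), 14 of them higher under eplerenone and 4 lower, beside 9.16% of all genes. Some displays of the study use 4 rats per group, and the 2 libraries left out were chosen with earlier results known, so that this count is a description.

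AABR07030086.1, on chromosome 10 between Wsb1 and the Ras regulator gene Nf1, had the smallest p of this comparison. It had 2.35, 1.62, 1.59 and 0.763 FPM in control, 13.3, 20, 22.4, 3.08 and 0.357 FPM in cirrhosis and 0.562, 0.501, 1.62, 0.452 and 0.601 FPM in cirrhosis & eplerenone. Of the cirrhosis livers 4 were above all others, and replicate 5 was the lowest of all 14 samples. The log2FC of cirrhosis & eplerenone against cirrhosis was -3.95 ± 0.79 (adjusted p = 0.312). Without cirrhosis replicate 5 it was -4.26 (adjusted p = 0.00754), the one fit of the 14 in which it was called, and DESeq2 gave an adjusted p of 4.2e-05. AABR07030086.2, in the next row, had 0.362, 0.752, 0.794 and 1.34 FPM in control, 0.887, 2.57, 1.78, 0.923 and 0.714 FPM in cirrhosis and 0.307, 0.250, 0.445, 0.169 and 0.492 FPM in cirrhosis & eplerenone. Every liver with eplerenone was below every cirrhosis liver (log2FC -2.02 ± 0.50, adjusted p = 0.312). Nf1 had 6.11, 2.62 and 4.24 FPM on average, and neither Nf1 nor Wsb1 was called in cirrhosis or in cirrhosis & eplerenone against control.

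The other members with the smallest p were, on the lower side, AABR07065531.26 (log2FC -1.56 ± 0.48), AABR07016845.1 (-1.78 ± 0.55) and AABR07050652.1 (-1.30 ± 0.44), and on the higher side AABR07026037.1 (3.99 ± 0.94), AABR07059004.1 (2.45 ± 0.59), AABR07015040.1 (1.79 ± 0.50), AABR07051308.1 (1.91 ± 0.57) and AABR07031399.1 (1.67 ± 0.52), each with an adjusted p of 0.312. AABR07016845.1 (chromosome 15) had 4.05, 2.69, 5.56, 3.49 and 1.01 FPM in cirrhosis and 1.18, 0.563, 1.86, 0.564 and 0.656 FPM in cirrhosis & eplerenone, and it was higher in cirrhosis than in control (log2FC 2.40 ± 0.63, adjusted p = 0.017). AABR07050652.1, next to Prkcz, the gene of an atypical protein kinase C, had 6.93, 5.02, 5.02, 6.51 and 1.79 FPM in cirrhosis and 1.12, 0.939, 2.59, 3.22 and 2.35 FPM in cirrhosis & eplerenone, with cirrhosis replicate 5 again apart from the other 4 (2.85 ± 0.52 against control, adjusted p = 0.00276). AABR07015040.1 had a mean FPM of 2.12 ± 0.304 (SD) over 4 controls, 0.796 ± 0.485 over 5 cirrhosis livers and 2.76 ± 1.44 over 5 livers with eplerenone. AABR07051308.1 (chromosome 3) had 10.8, 16.5, 6.90 and 22.2 FPM in control, 2.11, 9.26, 1.40, 2.41 and 5.00 FPM in cirrhosis and 22.5, 30.9, 4.01, 10.8 and 8.47 FPM in cirrhosis & eplerenone, the groups overlapping (-1.79 ± 0.59 in cirrhosis against control, adjusted p = 0.0454, and up to 0.135 without cirrhosis replicate 1, 3 or 4, cirrhosis & eplerenone 1 or 4 or control 2, 3 or 5, and 0.0746 without a scaling factor). Of the 5 that DESeq2 called with all samples, AABR07030086.1, AABR07030086.2 and AABR07065531.26 were lower and AABR07026037.1 and AABR07059004.1 higher under eplerenone. The comparison with cirrhosis and that of cirrhosis with control share the cirrhosis samples, so that the values of both are given side by side and not as independent results.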

How the data were processed

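Poly(A) enriched liver RNA of 14 rats was analysed as a table of gene counts that the authors deposited. Per the labels, the authors mapped paired reads to the rat genome rn 6 with HISAT2 (2.1.0), counted them over exons with featureCounts (2.0.0), a read with several places being counted at each, and took names and biotypes from the Ensembl archive 101 with BiomaRt (2.44.4). No strand setting is given in the sources used here. Of 15 labelled samples, 14 had a column in the table, and the remaining one, control replicate 1, is not analysed here. The study excluded a control set apart by principal component analysis, without stating its replicate number. FPM are counts per 1000000 of the TMM scaled library size.

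Counts were filtered with filterByExpr and scaled by TMM, and all genes were fitted over the 3 groups with the quasi-likelihood test of edgeR (4.0.16, R 4.3.3) with Benjamini-Hochberg adjustment. Calls are at a false discovery rate below 0.05. Alternatives were DESeq2 (1.42.0), RLE or no scaling, other filters on low counts, 4 samples per group, a replicate block, a term for the label number and leaving out each sample. The fits were tested on simulated data. Intervals of count ratios are exact at 95% and, like the limit of 3 counts per library, cover counting error only.

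The members and lists were chosen with earlier results of these data known. Named were, at a mean of at least 0.5 FPM in a group, the 10 called members per direction with the largest change in cirrhosis and the 5 in cirrhosis & eplerenone against control, the 5 per direction with the smallest p between the CCl4 treated groups, the 10 with the most reads, known names and the genes beside all of these. Other names are given where stated as chosen after their values were seen. Neighbours are the nearest protein coding rows in the order of the table.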

Additional observations from a re-analysis of the deposited data

Results flagged for a closer look

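A single liver stood apart from the rest of its group in 14 of 115 groups of values looked at over 39 named lincRNAs, by the gap of its highest or lowest value to the next (Dixon's ratio). In 3 of these groups a single liver had any count, which fixes the ratio, and of the other 112 groups 11 had such a liver. The rule flags about 1 in 20 groups, here 5.6, if values are independent and normally distributed. These groups share the same livers and some hold few counts, so that the 11 are a description and show no excess over chance. Causes were not tested.

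In cirrhosis & eplerenone replicate 3 was the highest for LOC102552829 (0.607 FPM, the others 0 to 0.102), AABR07058158.1 (4.94, the others 0.438 to 1.42), AABR07030086.1 (1.62, the others 0.452 to 0.601) and AABR07068044.2 (1.01 FPM, the others 0.153 to 0.282). Replicate 2 of that group was the lowest for LOC102549948 (0.125 FPM, the others 1.24 to 1.42), and replicate 4 was the one liver of the group with counts of AABR07019392.1 (0.113 FPM).

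In cirrhosis, replicate 5 was the highest for AABR07069728.1 (5.48 FPM, the others 0 to 0.378) and AABR07004530.1 (0.893 FPM, the others 0 to 0.0513), both of them lower in cirrhosis. Its hepatocyte markers summed to 131688.9 FPM, within the control range of 127348.8 to 141866.8, but Alb made up 93.3% of this, and the other 7 markers summed to 8848 FPM, below the control range of 11309.1 to 13253.3. Replicate 4 was the highest for AABR07058158.1 (3.69 FPM, the others 1.11 to 1.84) and the lowest for AABR07051507.1 (19.9 FPM, the others 38.2 to 43.4).

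Among controls, replicate 2 was the highest for AABR07004572.1 (30.7 FPM, the others 11.3 to 12.5) and AC134224.3 (401 FPM, the others 21.7 to 38.5). AABR07007717.3 had its single control count in replicate 4 (0.061 FPM) and AABR07058501.1 in replicate 3 (0.0578 FPM).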

How the results depend on the processing

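The 48 members called in cirrhosis against control became 69 with DESeq2, 42 without a filter on low counts, 18 of 108 with at least 10 counts in every sample, and 75 of 237 with 4 samples per group. Leaving out each sample gave 27 to 78, the 78 without cirrhosis replicate 5, where calls over all genes rose as well (18% higher and 14.1% lower). The 12 called in cirrhosis & eplerenone against control became 23 with DESeq2, 1 with at least 10 counts in every sample and 5 to 17 with each sample left out. Between the CCl4 treated groups the count of 0 became 5 with DESeq2, 18 with 4 samples per group, 1 without cirrhosis replicate 5 (0 to 1 over all samples left out) and 0 with the label number as a term or, in a fit chosen after seeing the data, with CCl4 treated rats only. For most of these settings the share of all genes called is not given here, so that the counts cannot be read as particular to lincRNAs. By at least 10 counts in every sample there would be 108 members in place of 262. Without AABR07004549.1 the median share of reads on lincRNAs was 0.1672% (control), 0.1862% (cirrhosis) and 0.2212% (cirrhosis & eplerenone). LOC100912578 (log2FC -0.02) changed sign with DESeq2 and RLE (0.01 each), without scaling (0.26), with at least 10 counts in every sample (0.04) and over samples left out (-0.06 to 0.05, at 0.02 and 0.05), and AABR07072236.1 (-0.10) without scaling (0.20) and over samples left out (-0.19 to 0.04, at 0.03 and 0.04). Neither was called in any of these. Of 1156 single values over 57 log2FC, 681 and 317 kept direction and call with a sample left out and under other settings. The causes were not tested.

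Replicate numbers are shared between groups, but samples with the same number did not deviate together (r from -0.333 to 0.187), so that the numbers do not pair the rats. With a replicate block 32, 4 and 0 members were called in the 3 comparisons, for which the share of all genes is not given here. Limits by distance between neighbours were not run, since coordinates of rn 6 were not used here. Of the members called in cirrhosis, 7 of 23 higher and 11 of 25 lower had at least 10 counts in every sample. Levels per gene length were not computed.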
